A study of Mus musculus with 15 samples.

Results

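Kruppel-like factors are zinc finger transcription factors, and 7 of their genes were followed here: Klf2, Klf3, Klf4, Klf6, Klf7, Klf10 and Klf13. They were taken by gene symbol from count tables of 17493 genes. All 7 were in the tables and all 7 were among the 10831 genes with enough counts to be tested. The cells were CD8+ OT-I T lymphocytes of female mice, isolated from the spleen and lymph nodes of the strain C57BL/6-Tg(TcraTcrb)1100Mjb/Crl, whose transgenic T cell receptor recognises an ovalbumin peptide on MHC class I. There were 5 groups of 3 libraries. The unstimulated group was untreated and taken at 0 h. The IF groups were stimulated for 8 h or 22 h with immunofilaments at 5 ng/ml, synthetic filaments that carried MHC loaded with the SIITFEKL peptide together with interleukin-2. The DC groups were stimulated for 8 h or 22 h with 20000 Flt-3Ligand dendritic cells per well pulsed with the same peptide, and each stimulated well held 50000 T cells. Viable CD8+ CD103- cells were sorted before RNA was extracted. The unstimulated cells were taken at 0 h, so the effect of the stimulus and of time in culture cannot be told apart in comparisons with them.

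Kruppel-like factors bind GC-rich and CACCC elements through C2H2 zinc fingers at their C-terminal end, and their N-terminal parts recruit coactivators or corepressors. In T cells, KLF2 is known for holding naive cells in quiescence and for keeping the exit receptor gene S1pr1 expressed. KLF4 is known as a brake on division of CD8+ T cells, and signalling through the T cell receptor and PI3K-AKT is known to lower both genes, in part through the transcription factor FOXO1.

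Total counts ran from 2892874 to 19806730 per library, and 11427 to 13591 genes had at least 1 count. Levels are in CPM, counts per 1000000 on library totals scaled by TMM, the trimmed mean of M values. Reads came from the 3′ end of transcripts, so levels are not ranked between genes. All 10 genes of a CD8 T cell marker list had counts in every library, but their summed level was 11000 to 11900 CPM in unstimulated cells and 5050 to 7780 CPM in stimulated cells. IF 22 h replicates 2 and 3 stood apart. In both, 127 genes lay more than 2-fold below the lowest of the 13 other libraries, against 34 genes for the next of 105 pairs of libraries. Mitochondrial ribosomal RNA made up 0.179% and 0.146% of their counts, against 1.82% to 4.49% in the other 13. Results of the 7 genes at IF 22 h are therefore also given without these 2 libraries, a choice made after seeing the data that leaves 1 library in the group and assumes that it varies like the others. Sample titles number the libraries of every group with Don and a digit from 1 to 3, which reads as a donor number shared across the groups. The labels do not spell the word out or say whether a donor was 1 mouse or a pool. Results whose call changes when the replicate number enters the fit as an additive term, called the replicate block here, are therefore also given with it.

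Against unstimulated cells, 2 of the 7 genes, Klf4 and Klf6, were lower in all 4 stimulated groups, and Klf10 was also lower at IF 8 h. No gene of the 7 was higher past the threshold in any comparison. The threshold was an adjusted p-value of 0.05 by edgeR's quasi-likelihood test with Benjamini-Hochberg adjustment over all tested genes, two-sided. At IF 8 h 3 of 7 genes passed, where 7.76% of all tested genes passed. At DC 8 h 2 of 7 passed, against 6.82% of all genes. At IF 22 h 2 of 7 passed, against 6.08%, and at DC 22 h 2 of 7 passed, against 7.76%. With the replicate block 4 of 7 passed at IF 22 h, against 5.89% of all genes, and 2 of 7 at IF 8 h, against 7.08%. The median log2 fold change of the 7 genes was −0.93, −0.64, −1.33 and −0.85 in that order, and that of all tested genes was 0.02, 0.04, 0.01 and 0.04. With library size alone in place of TMM, those medians of all genes became 0.26, 0.30, 0.22 and 0.37, and every direction here is given on the TMM scale. All 4 comparisons share the same 3 unstimulated libraries.

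**Figure D1:**
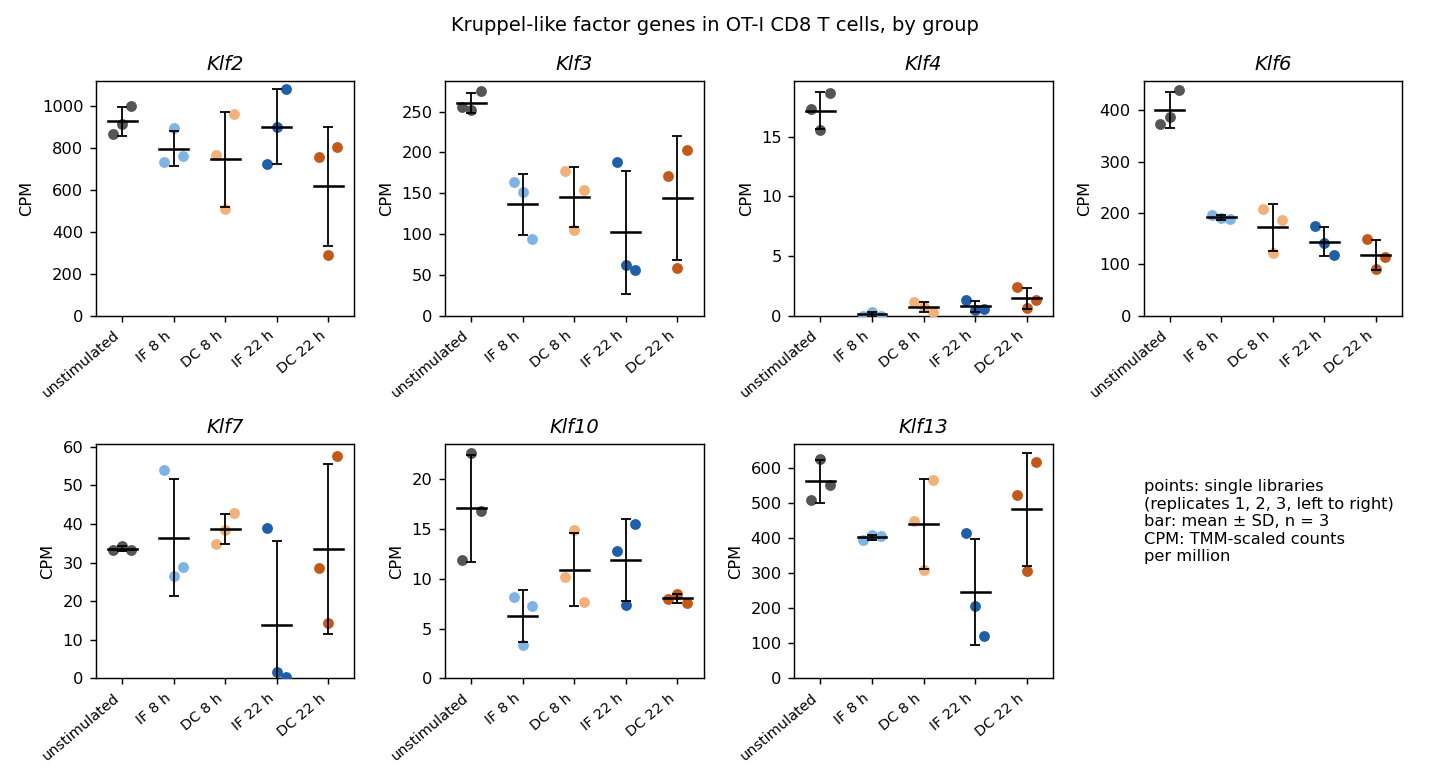
Level of each Kruppel-like factor gene in CPM (vertical axis, from 0) in the 5 groups, with 1 point per library, left to right replicates 1 to 3, and bars for mean ± SD (n = 3). Klf4 and Klf6 lie below the unstimulated libraries in all 12 stimulated libraries, and Klf7 falls to 1.79 and 0.357 CPM in IF 22 h replicates 2 and 3.

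Klf4, on chromosome 4 (chr4:55527143-55532466, minus strand, GRCm38), had the largest fold differences of the 7 genes. Unstimulated libraries held 118, 86 and 80 counts of it, or 17.3, 15.5 and 18.6 CPM. IF 8 h libraries held 0, 1 and 0 counts, and DC 8 h libraries held 12, 6 and 2. IF 22 h libraries held 11, 4 and 11, and DC 22 h libraries held 21, 6 and 15. The gene was close to undetected at IF 8 h and had counts in 10 of the 12 stimulated libraries, and the highest of these, DC 22 h replicate 1, reached 2.39 CPM. The pooled level at IF 8 h was 0.474% of the unstimulated level, with an exact 95% interval from counting error alone of 0.012% to 2.66%. The same share was 4.7% (2.82% to 7.39%) in DC 8 h, 4.19% (2.69% to 6.27%) in IF 22 h and 8.33% (5.88% to 11.6%) in DC 22 h.

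By edgeR, Klf4 fell by 4.46 ± 0.66 (SE) on the log2 scale at DC 8 h, with an adjusted p-value of 5.63e-04. It fell by 4.46 ± 0.65 at IF 22 h (adjusted p 5.52e-04) and by 3.56 ± 0.62 at DC 22 h (adjusted p 0.00193). At IF 8 h the edgeR adjusted p-value was 1.07e-04, and the fold is given only as the counting ratio above, since 1 count makes the fitted value depend on the prior count. Without IF 22 h replicates 2 and 3 the Klf4 difference at IF 22 h was −3.69 with an edgeR adjusted p-value of 0.103, where 0.833% of all genes passed. After the unstimulated group the order of mean levels was DC 22 h, IF 22 h, DC 8 h and IF 8 h, and each neighbouring pair of these 4 groups overlapped. The pooled Klf4 level in DC 8 h was 9.90 times that in IF 8 h, with an exact 95% counting interval of 1.58 to 410 from 20 counts against 1, and the edgeR adjusted p-value was 0.413.

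Klf6 encodes a widely expressed factor with an early response to injury and growth signals, and lies on chromosome 13 (chr13:5861482-5870394, plus strand). It was at 373.7, 386.2 and 439 CPM in unstimulated libraries and at 195.7, 189.3 and 188.3 CPM at IF 8 h. DC 8 h libraries had 208, 121.1 and 186 CPM, IF 22 h libraries 173.8, 141 and 117.4 CPM, and DC 22 h libraries 148.6, 90.25 and 113.9 CPM. All 12 stimulated libraries lay below all 3 unstimulated ones. Klf6 fell by 1.06 ± 0.22 (SE) on the log2 scale at IF 8 h (edgeR adjusted p 0.00702) and by 1.22 ± 0.22 at DC 8 h (edgeR adjusted p 0.00247). At 22 h it fell by 1.47 ± 0.22 with IF (edgeR adjusted p 6.14e-04) and by 1.77 ± 0.22 with DC (edgeR adjusted p 1.81e-04). The mean dropped from 400 ± 34.6 CPM (SD, n = 3) in unstimulated cells to 118 ± 29.4 CPM at DC 22 h, and the other groups lay between. Neighbours among the 4 stimulated groups overlapped. Without IF 22 h replicates 2 and 3 the IF 22 h difference of Klf6 was −1.20, with an edgeR adjusted p-value of 0.105. In bulk RNA, fewer cells expressing a gene and less of its RNA per cell cannot be told apart.

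The stretches just upstream of Klf4 and Klf6 are shown because these 2 genes fell together, with that of Klf2, which passed only at DC 22 h without the low-count filter, for contrast. They come from RefSeq promoters on GRCm38.p6, 250 bases before to 50 after each gene's start, cut where an annotated transcript begins and written 5′ to 3′ on the gene's strand. Klf4 is chr4:55532476-55532725 (minus strand), Klf6 is chr13:5861239-5861481 (plus strand) and Klf2 is chr8:72318812-72319032 (plus strand). Capitals mark GC boxes (GGGCGG on either strand, of which 2 of the 4 at Klf4 overlap) and, at Klf2, a match to the MEF2 site.
Klf4: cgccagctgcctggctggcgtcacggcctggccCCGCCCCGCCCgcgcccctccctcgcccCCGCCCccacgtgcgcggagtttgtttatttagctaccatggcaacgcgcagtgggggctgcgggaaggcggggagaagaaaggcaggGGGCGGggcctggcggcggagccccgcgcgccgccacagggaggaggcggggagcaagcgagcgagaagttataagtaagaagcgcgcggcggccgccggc
Klf6: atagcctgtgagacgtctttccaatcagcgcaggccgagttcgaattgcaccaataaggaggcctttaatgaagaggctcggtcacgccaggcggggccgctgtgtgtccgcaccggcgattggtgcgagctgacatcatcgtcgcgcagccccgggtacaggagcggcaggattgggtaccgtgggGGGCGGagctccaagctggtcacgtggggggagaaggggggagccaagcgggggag
Klf2: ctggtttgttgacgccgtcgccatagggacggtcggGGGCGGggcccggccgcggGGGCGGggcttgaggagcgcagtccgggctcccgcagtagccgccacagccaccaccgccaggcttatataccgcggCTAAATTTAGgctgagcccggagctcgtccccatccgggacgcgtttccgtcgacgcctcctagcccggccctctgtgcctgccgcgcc
GC content was 74% in the Klf4 stretch, 64.2% in the Klf6 stretch and 71.5% in the Klf2 stretch.

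RefSeq promoters of 300 bases were matched for 6 of the 7 genes: Klf2, Klf3, Klf4, Klf6, Klf7 and Klf13. The GC box was found in 6 of 6, against 35.7% of 32851 promoters. GC content was 58.3% to 76.7% in the 6 promoters, and its median over all promoters was 52.7%. The shorter CACCC core was in 4 of 6, at Klf2, Klf3, Klf7 and Klf13, against 57.5% of all promoters. The MEF2 site, searched because MEF2 factors are known activators of Klf2, was in 1 of 6, at Klf2, against 1.86%. The FOXO core TGTTTAC (3.65% of all promoters), the AP-1 site TGACTCA (5.2%), the CACCC box CCACACCC (3.56%), the cAMP response element TGACGTCA (1.79%), the CArG box (1.63%) and the TATA box TATAAA (13.6%) were in 0 of 6. Each motif was searched on both strands. The CACCC core lies within the CACCC box, and the GC box, CACCC core, MEF2, CArG and TATA searches were added after the first 4 motifs had been searched.

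Klf10 encodes a TGF-β-inducible repressor, and the gene lies on chromosome 15 (chr15:38291463-38300706, minus strand). Its unstimulated libraries had 11.89, 22.59 and 16.76 CPM, and IF 8 h libraries had 8.207, 3.315 and 7.233 CPM. DC 8 h libraries had 10.2, 14.9 and 7.635 CPM, IF 22 h libraries 12.74, 7.41 and 15.52 CPM, and DC 22 h libraries 7.967, 8.516 and 7.606 CPM. IF 8 h and DC 22 h lay below every unstimulated library, while DC 8 h and IF 22 h overlapped with them. Klf10 fell by 1.42 ± 0.39 (SE) on the log2 scale at IF 8 h (edgeR adjusted p 0.0346). For DC 8 h, IF 22 h and DC 22 h the log2 fold changes of Klf10 were −0.64, −0.51 and −1.09 (edgeR adjusted p 0.335, 0.462 and 0.0842). Without IF 22 h replicates 2 and 3 the IF 22 h value of Klf10 was −0.42 (edgeR adjusted p 0.849). The IF 8 h call on Klf10 was lost without unstimulated replicate 2 (edgeR adjusted p 0.140) or 3 (0.0768), without IF 8 h replicate 1 (0.0525), 2 (0.109) or 3 (0.0777). It was also lost with the replicate block (0.0531) and with library size alone (0.0626). The DC 22 h value of Klf10 passed with DESeq2 (adjusted p 0.0448).

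**Figure D2:**
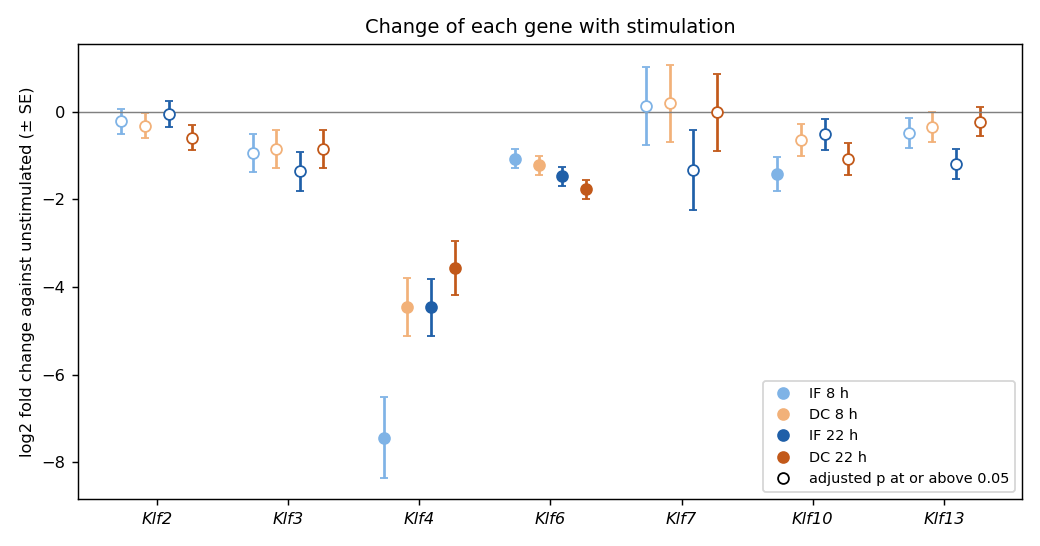
Log2 fold change against unstimulated cells (vertical axis, ± SE) of the 7 genes (horizontal axis) in each stimulated group, by edgeR over 3 against 3 libraries; filled points passed an adjusted p-value of 0.05 and open points did not. Filled points stand at Klf4 and Klf6 in all 4 groups and at Klf10 in IF 8 h only; the IF 8 h value of Klf4 rests on 1 count and depends on the prior count.

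Klf2 did not pass in any comparison with the low-count filter in place. Its gene lies on chromosome 8 (chr8:72319033-72321656, plus strand). Unstimulated libraries had 866.1, 917.5 and 1001 CPM, and IF 8 h libraries had 736.5, 894.8 and 763.3 CPM. DC 8 h libraries had 769.8, 509.6 and 961.6 CPM. IF 22 h libraries had 722.6, 903.3 and 1081 CPM, and DC 22 h libraries had 757.2, 290.4 and 807.2 CPM. DC 22 h lay below every unstimulated library, the other 3 stimulated groups overlapped with them, and replicate 2 was the lowest library of both DC groups. The mean of 928 ± 68 CPM (SD, n = 3) in unstimulated cells was 1.5 times that of 618 ± 285 CPM at DC 22 h, the lowest group. The log2 fold change of Klf2 was −0.22 for IF 8 h (95% interval −0.84 to 0.40) and −0.31 for DC 8 h (−0.93 to 0.31). For the later groups it was −0.04 with IF (−0.66 to 0.58) and −0.59 with DC (−1.21 to 0.03). The edgeR adjusted p-values of Klf2 were 0.709, 0.594, 0.963 and 0.253. Without the filter Klf2 passed at DC 22 h, at −0.57 (edgeR adjusted p 0.0432). Without DC 22 h replicate 2 its DC 22 h value was −0.23 (edgeR adjusted p 0.636), and without IF 22 h replicates 2 and 3 its IF 22 h value was −0.36 (0.842). The intervals include declines of up to 1.21 on the log2 scale, so the tests do not show that Klf2 stayed at its unstimulated level.

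Klf3, which encodes a repressor that works through CtBP, lay below every unstimulated library in all 12 stimulated libraries, and whether it passed depended on the fit. Unstimulated libraries had 255.3, 252.5 and 275.1 CPM. IF 8 h libraries had 163.6, 151.5 and 94.3 CPM, and DC 8 h libraries had 176.7, 104.8 and 153.9 CPM. At 22 h the spread was wide, with 188.4, 62.15 and 55.53 CPM in IF libraries and 171.7, 58.62 and 202.6 CPM in DC libraries. For IF 8 h and DC 8 h the log2 fold changes of Klf3 were −0.93 ± 0.44 (SE) and −0.85 ± 0.44, and for IF 22 h and DC 22 h they were −1.36 ± 0.44 and −0.85 ± 0.44. The edgeR adjusted p-values of Klf3 were 0.215, 0.285, 0.0819 and 0.261, so it did not pass. Without the low-count filter it passed in all 4, with edgeR adjusted p-values of 0.00186, 0.00661, 1.16e-06 and 0.00546. In a fit of only both groups concerned, Klf3 passed at IF 8 h (edgeR adjusted p 0.00435) and at DC 8 h (0.0195). The IF 22 h value of Klf3 passed with the replicate block (edgeR adjusted p 0.0336) and with DESeq2 (0.0228). It also passed without IF 22 h replicate 1 (edgeR adjusted p 0.00268) or DC 22 h replicate 2 (0.0322), and was −0.47 without IF 22 h replicates 2 and 3. The DC 22 h value of Klf3 was −0.46 without DC 22 h replicate 2. The gene is at chr5:64803388-64832901 (plus strand) and shares 404 exonic bases with Gm20033 on the other strand, whose reads could not be told apart if strand was not used in counting.

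Klf13 encodes a factor known as a late activator of the chemokine gene Ccl5 in T cells, and lies on chromosome 7 (chr7:63886351-63938915, minus strand). Unstimulated libraries had 507.8, 626.8 and 550.2 CPM and IF 8 h libraries had 394.3, 408.1 and 406.1 CPM. DC 8 h libraries had 447.5, 308.8 and 566.2 CPM, IF 22 h libraries 413.9, 207.1 and 119.8 CPM, and DC 22 h libraries 524.4, 305 and 616.4 CPM. Both IF groups lay below every unstimulated library, while both DC groups overlapped with them. For IF 8 h, DC 8 h and DC 22 h its log2 fold changes were −0.48, −0.35 and −0.22 (edgeR adjusted p 0.429, 0.613 and 0.760), and the first of these passed in a fit of only both groups concerned (0.0156). The DC 22 h value of Klf13 was 0.04 without DC 22 h replicate 2. The IF 22 h difference of Klf13 was −1.19 ± 0.34 (SE), and its edgeR adjusted p-value of 0.0513 fell just short of the threshold. It passed with the replicate block (edgeR adjusted p 0.0447), with DESeq2 (0.0110) and without the low-count filter (2.75e-06). Klf13 at IF 22 h also passed without DC 8 h replicate 2 (edgeR adjusted p 0.0420), DC 22 h replicate 2 (0.0317) or 3 (0.0454), or IF 22 h replicate 1 (0.00129), and was −0.44 without IF 22 h replicates 2 and 3 (edgeR adjusted p 0.729).

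Klf7, a member of the family known mainly from neuronal development, turned on the same 2 libraries. It is at chr1:64029447-64122282 on the minus strand. Unstimulated libraries had 33.32, 34.34 and 33.28 CPM, IF 8 h libraries 54.06, 26.52 and 28.93 CPM, and DC 8 h libraries 34.86, 38.38 and 42.73 CPM. DC 8 h libraries lay just above the unstimulated ones, and IF 8 h and DC 22 h (28.57, 14.27 and 57.51 CPM) overlapped with them. IF 22 h libraries had 39.04, 1.793 and 0.357 CPM, from 328, 15 and 7 counts. Replicate 1 was therefore within the range of the other groups, and the highest of replicates 2 and 3 was far below the lowest of the 13 other libraries, at 14.3 CPM. Klf7 is 1 of the 127 genes that were low in both. The same highest and lowest values were 207 and 305 CPM for Klf13 and 62.1 and 58.6 CPM for Klf3. Whether the state of these libraries accounts for the low values was not tested.

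The IF 22 h difference of Klf7 from unstimulated cells was −1.33 ± 0.91 (SE) on the log2 scale (edgeR adjusted p 0.448), and it passed without the low-count filter (0.00456). Without IF 22 h replicate 1 it was −5.21 (edgeR adjusted p 1.15e-04), and without replicates 2 and 3 it was 0.22 (edgeR adjusted p 0.951). For IF 8 h, DC 8 h and DC 22 h the log2 fold changes of Klf7 were 0.13, 0.20 and −0.004 (edgeR adjusted p 0.951, 0.933 and 0.999). The gene shares 3196 exonic bases with Gm26649 and 4 with Gm13748, both on the other strand, so reads of these genes may have been counted for it.

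**Figure D3:**
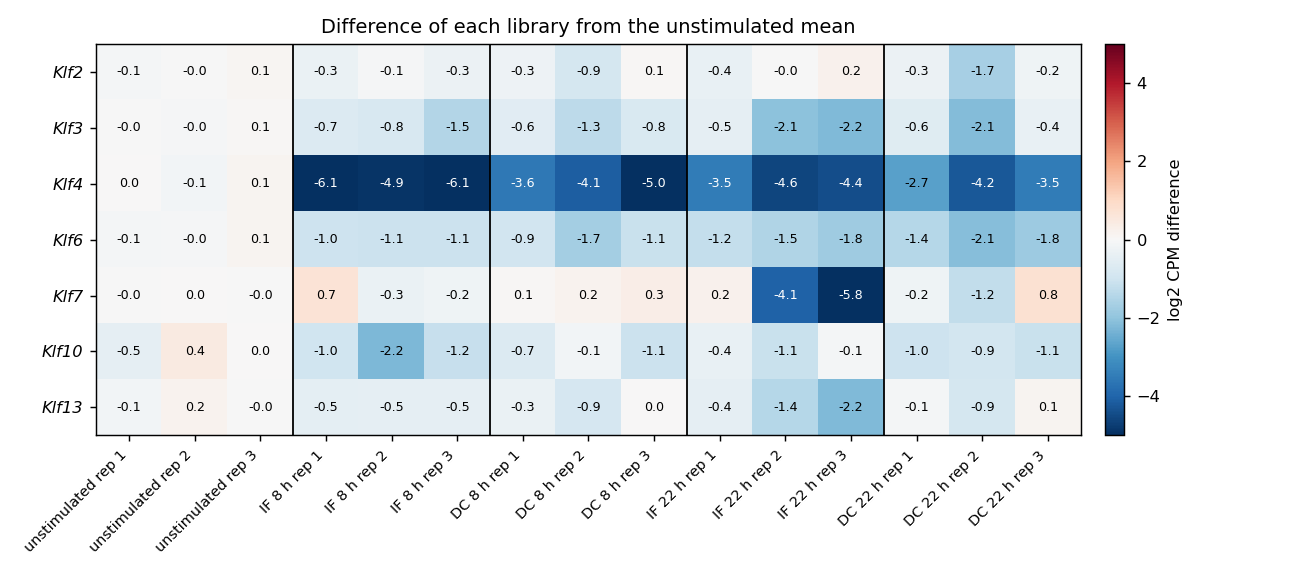
Difference of log2 CPM (colour scale, prior count 2) between each of the 15 libraries (columns, vertical lines between groups) and the mean of the 3 unstimulated libraries, for the 7 genes (rows). Klf7 is lowest in IF 22 h replicates 2 and 3, at −4.05 and −5.80, where Klf3 and Klf13 are also low. In DC 22 h replicate 2 Klf7 is at −1.22, Klf2 at −1.67, Klf3 at −2.15 and Klf6 at −2.14.

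The 2 stimuli were then compared with each other, and the times within each stimulus. Of the 7 genes 0 passed between IF and DC at 8 h (edgeR; 0.665% of all genes passed) and 0 at 22 h (2.43%). Between 22 h and 8 h 0 passed with IF (1.12%) and 0 with DC (0.48%), and 0 passed the interaction of stimulus and time (0%). At an unadjusted p-value below 0.05 by edgeR the numbers of the 7 were 1, 1, 2, 1 and 1, where 8.27%, 15.3%, 15%, 9.03% and 7.92% of all genes were. DESeq2 called 0 of the 7 in each of the 5, against 1.8%, 5.2%, 3.38%, 1.94% and 0.369% of all genes. Klf4 was the 1 at IF against DC at 8 h, and Klf13 the 1 at 22 h, with a log2 difference of −0.97 ± 0.34 (SE; edgeR adjusted p 0.164). That Klf13 difference was −1.56 without IF 22 h replicate 1 (edgeR adjusted p 0.00357) and −0.22 without replicates 2 and 3. The pooled Klf4 level at IF 22 h was 8.83 times that at IF 8 h, with an exact counting interval of 1.45 to 362 from 26 counts against 1. Those groups did not overlap, and the edgeR adjusted p-value was 0.213, or 0.684 without IF 22 h replicates 2 and 3. The log2 difference of Klf10 between the same groups was 0.90 ± 0.38 (SE; edgeR adjusted p 0.274), and 1.00 without them (0.906). Klf6 was −0.55 ± 0.21 (SE) at DC 22 h against DC 8 h (edgeR adjusted p 0.397). For the interaction, Klf10 had a value of 1.35 ± 0.53 (SE; edgeR adjusted p 0.542). Without IF 22 h replicate 1, Klf7 passed for IF against DC at 22 h (log2 difference −5.21, edgeR adjusted p 1.12e-04), for IF 22 h against IF 8 h (−5.34, 1.53e-04) and for the interaction (−5.14, 0.00131), and Klf13 passed for IF 22 h against IF 8 h (−1.30, 0.0182). Without the low-count filter both genes passed for IF against DC at 22 h (edgeR adjusted p 0.00529 for Klf7 and 3.02e-04 for Klf13) and for IF 22 h against IF 8 h (0.00320 and 0.0330).

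IF against DC 95% intervals, not adjusted for the number of genes, bound how far the 2 stimuli could differ. For Klf6 the log2 difference was 0.16 at 8 h (95% interval −0.30 to 0.61) and 0.29 at 22 h (−0.16 to 0.74). For Klf2 it was 0.10 at 8 h (−0.52 to 0.71) and 0.55 at 22 h (−0.07 to 1.16). For Klf3 it was −0.09 at 8 h (−1.01 to 0.83) and −0.50 at 22 h (−1.42 to 0.41). Without IF 22 h replicates 2 and 3 the 22 h difference of Klf3 turned to 0.38. For Klf10 it was −0.77 at 8 h (−1.58 to 0.04) and 0.57 at 22 h (−0.19 to 1.34). For Klf7 it was −0.07 at 8 h (−1.94 to 1.80) and −1.32 at 22 h (−3.23 to 0.58). The 22 h difference of Klf7 turned to 0.22 without IF 22 h replicates 2 and 3. In that setting the genes other than Klf3 and Klf7 kept their direction at 22 h. For Klf13 it was −0.13 at 8 h (−0.85 to 0.59), with an interval of −1.69 to −0.24 at 22 h, and for Klf4 it was −0.90 at 22 h (−2.23 to 0.43). Differences of up to 0.74 on the log2 scale for Klf6, and of over 1 for each of the 6 other genes, therefore lie within these intervals.

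Of 19 other genes of the KLF and related SP families, 14 were in the tables and 10 were tested. By edgeR the lower calls were Klf11 in both DC groups and Klf1 in all 4 groups, and none of the 10 was higher. Klf1 passed the low-count filter through its unstimulated libraries alone, so it entered the tests only because it was higher there. Its calls stood without the filter but were lost with DESeq2 and without unstimulated replicate 1 or 3. They are not counted as a result. That leaves 1 gene, Klf11, lower at DC 8 h and at DC 22 h among the tested genes other than Klf1. Of all tested genes 4.07% and 4.35% were lower there. Klf11, a TGF-β-inducible repressor related to Klf10, had 25.5 ± 11.3 CPM (SD, n = 3) in unstimulated cells and 9.29, 5.21, 6.43 and 3.57 CPM on average at IF 8 h, DC 8 h, IF 22 h and DC 22 h. It fell by 2.26 ± 0.60 (SE) on the log2 scale at DC 8 h (edgeR adjusted p 0.0297) and by 2.79 ± 0.61 at DC 22 h (edgeR adjusted p 0.00964). Klf11 was −1.44 at IF 8 h (edgeR adjusted p 0.152) and −1.98 at IF 22 h (0.0567). Its DC 8 h call was lost without unstimulated replicate 2 or 3 or DC 8 h replicate 2 or 3, with an edgeR adjusted p-value of up to 0.129.

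Klf1, the master regulator of red cell genes, was detected almost only in unstimulated cells. It had 55 counts over the 3 unstimulated libraries, 1 at IF 22 h and 0 in each of the other 3 stimulated groups. Against a floor of 3 counts per group it was at least 13.6-fold lower at IF 8 h, at least 27.5-fold lower at DC 8 h and at least 32.5-fold lower at DC 22 h. At IF 22 h the ratio was 120-fold, with an exact 95% counting interval of 20.7 to 4830. In none of the 12 stimulated libraries did Klf1 reach the 1.26 CPM that the filter asks for, against 3 of 3 unstimulated ones, so its levels are given with no test.

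Known upstream regulators of Klf2 and Klf4 numbered 16, of which 15 were tested. Lower past the threshold were 2 of 15 with either stimulus at 8 h, where 4.72% of all tested genes were lower with IF and 4.07% with DC. At 22 h 1 of 15 was lower with either stimulus, against 3.44% with IF and 4.35% with DC, and none of the 15 was higher. The list's median log2 fold changes were −0.16, −0.02, −0.06 and −0.17, and those of all genes are given above. The gene lower in all 4 was Foxo1, the transcription factor named above, at 322 ± 14 CPM (SD, n = 3) in unstimulated cells and 178 ± 22.2, 158 ± 17.4, 161 ± 36.3 and 176 ± 32.9 CPM at IF 8 h, DC 8 h, IF 22 h and DC 22 h. All 12 stimulated libraries lay below the 3 unstimulated ones. Foxo1 fell by 0.85, 1.03, 1.00 and 0.87 on the log2 scale, with edgeR adjusted p-values of 0.0117, 0.00326, 0.00434 and 0.00877. Its IF 8 h call was lost without IF 8 h replicate 1 or 3 (edgeR adjusted p up to 0.0546), and its IF 22 h call had an edgeR adjusted p-value of 0.148 with both IF 22 h replicates 2 and 3 left out. With library size alone the edgeR adjusted p-values of Foxo1 were 0.0503 at IF 8 h and 0.0599 at DC 22 h, and both calls were lost.

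**Figure D4:**
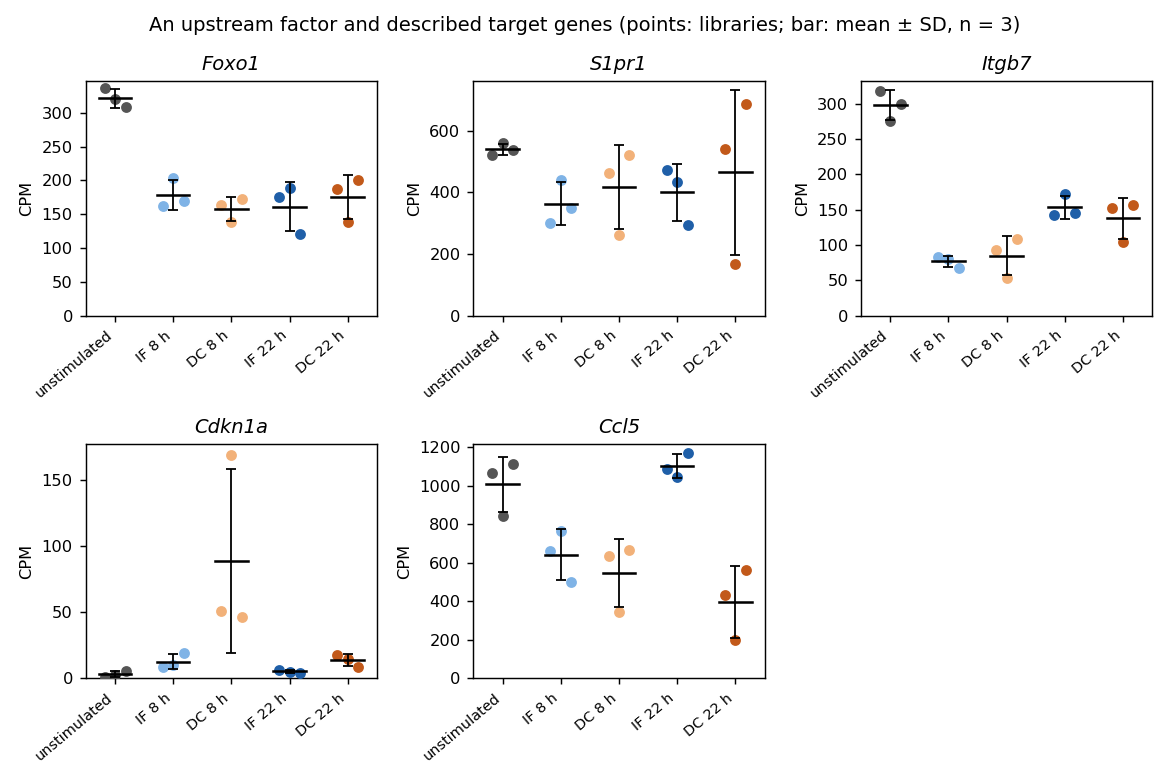
Levels in CPM (vertical axis, from 0) of Foxo1, a known activator of Klf2, and of 4 genes described as targets of the family, with 1 point per library and mean ± SD (n = 3) in the 5 groups. Foxo1 and Itgb7 are lower in all 12 stimulated libraries than in the unstimulated ones.

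Of 10 described targets of the family, 1 was higher and 1 lower at IF 8 h and at DC 8 h, 1 was lower at IF 22 h, and 1 was higher and 2 lower at DC 22 h. In either direction that is 2, 2, 1 and 3 of 10, where 7.76%, 6.82%, 6.08% and 7.76% of all tested genes passed, so the IF 22 h share is near that of all genes. S1pr1, a well known target of KLF2, did not pass except at IF 8 h in a fit of only both groups concerned (edgeR adjusted p 0.0176). It had a mean of 540 CPM in unstimulated cells and 364, 416, 400 and 465 CPM at IF 8 h, DC 8 h, IF 22 h and DC 22 h. Its log2 fold changes were −0.57, −0.38, −0.43 and −0.22, with edgeR adjusted p-values of 0.375, 0.610, 0.550 and 0.781. DC 22 h replicate 2, the lowest library of Klf2, was also the lowest of S1pr1, at 167.6 CPM. The DC 22 h value of S1pr1 turned to 0.21 without that library and to 0.11 with library size alone. Its IF 22 h value was −0.19 without IF 22 h replicates 2 and 3.

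Itgb7, an integrin subunit for homing to the gut, passed in all 4 comparisons. It was at 317.8, 276.3 and 300.3 CPM in unstimulated libraries, at 82.96, 80.56 and 67.78 CPM at IF 8 h and at 92.5, 54.03 and 108.1 CPM at DC 8 h. Libraries at 22 h had 143, 172.2 and 145.3 CPM with IF and 152.8, 104.2 and 156.8 CPM with DC. Of the 6 libraries at 8 h 5 lay below every library at 22 h, and DC 8 h replicate 3 did not. On the log2 scale Itgb7 fell by 1.95 ± 0.23 (SE) in IF 8 h and by 1.81 ± 0.23 in DC 8 h, and it fell by 0.96 ± 0.22 in IF 22 h and by 1.11 ± 0.22 in DC 22 h. The edgeR adjusted p-values of Itgb7 were 7.22e-05, 1.39e-04, 0.0169 and 0.00527. Its IF 22 h call was lost without unstimulated replicate 1 or 3 or IF 22 h replicate 3, and its edgeR adjusted p-value was 0.210 with both IF 22 h replicates 2 and 3 left out. Itgb7 was 0.99 ± 0.22 higher on the log2 scale at IF 22 h than at IF 8 h (edgeR adjusted p 0.0437), a call kept in 11 of 22 alternatives. Leaving out any unstimulated or IF 8 h library, IF 22 h replicate 2 or 3, or replicate 1 of either DC group ended it, and the edgeR adjusted p-value reached 0.742 with both IF 22 h replicates 2 and 3 left out.

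Cdkn1a, which encodes the cell cycle inhibitor p21 and is a known target of KLF4 and KLF6, was higher in 3 of the 4 comparisons. It had 1.028, 2.711 and 5.586 CPM in unstimulated libraries and 51.1, 168.7 and 46.1 CPM at DC 8 h. IF 8 h libraries had 8.564, 10.28 and 19.29 CPM, IF 22 h libraries 6.428, 5.139 and 4.134 CPM, and DC 22 h libraries 17.41, 14.93 and 8.546 CPM. DC 8 h was the highest group and did not overlap with any other. It rose by 4.91 ± 0.61 (SE) on the log2 scale at DC 8 h (edgeR adjusted p 1.30e-04). Cdkn1a also rose by 2.10 ± 0.60 at IF 8 h (edgeR adjusted p 0.0434) and by 2.20 ± 0.58 at DC 22 h (edgeR adjusted p 0.0283). It was 2.81 ± 0.53 lower at IF 8 h than at DC 8 h (edgeR adjusted p 0.0187). Between the DC times Cdkn1a fell by 2.71 ± 0.51 from 8 h to 22 h (edgeR adjusted p 0.0268), a call lost without DC 8 h replicate 1 or 2, without DC 22 h replicate 1 or 2 and in a fit of only both groups concerned (edgeR adjusted p up to 0.222). Of these, the DC 8 h rise alone passed without each single library; the IF 8 h rise was lost without any 1 IF 8 h library, unstimulated replicate 1 or 2, IF 22 h replicate 2 or 3 or DC 22 h replicate 1 (edgeR adjusted p up to 0.172). The DC 22 h rise was lost without unstimulated replicate 1 or 2 or DC 22 h replicate 1 or 2 (edgeR adjusted p up to 0.122) and in a fit of only both groups concerned (0.0516), and the IF against DC difference without IF 8 h replicate 1 or 2 or DC 8 h replicate 2 (up to 0.118).

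Ccl5, the chemokine gene bound by KLF13, had means of 1010 CPM in unstimulated cells and 642, 548, 1100 and 398 CPM at IF 8 h, DC 8 h, IF 22 h and DC 22 h. It fell by 1.34 ± 0.30 (SE) on the log2 scale at DC 22 h (edgeR adjusted p 0.0119), and was −0.65 at IF 8 h (0.206), −0.88 at DC 8 h (0.0936) and 0.13 at IF 22 h (0.861). At 22 h Ccl5 was 1.47 ± 0.30 higher with IF than with DC (edgeR adjusted p 0.0165). Leaving out IF 22 h replicate 3 or DC 22 h replicate 1 ended that call, as did a fit of only both groups concerned, and the edgeR adjusted p-value reached 0.319 with both IF 22 h replicates 2 and 3 left out. Of 12 corepressor and coactivator genes, among them Ctbp1, Sin3a and Ep300, 0 passed in any of the 9 comparisons by edgeR. At an unadjusted p-value below 0.05 by edgeR at most 3 did in any comparison, where 7.92% to 22.9% of all genes did, and DESeq2 called 2 at DC 22 h against unstimulated cells (11.7% of all genes) and 0 in the others.

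Klf4, Klf6 and Klf10 are known as early response genes, so genes of the immediate early and heat shock response were read beside them. Of 12 such genes, 10, 9, 10 and 11 were lower than in unstimulated cells at IF 8 h, DC 8 h, IF 22 h and DC 22 h. Of all tested genes 4.72%, 4.07%, 3.44% and 4.35% were lower. The counts include Hspa1a and Hspa1b in each comparison, at no more than 0.297 and 1.11 CPM in any stimulated library. Both passed the low-count filter, which asks for 1.26 CPM, through their unstimulated libraries alone, so their calls are not taken as a result. With both included, the list's median log2 fold changes were −3.38, −2.39, −3.90 and −2.80, against 0.02, 0.04, 0.01 and 0.04 for all tested genes. The summed level of the 12 genes was 2250 to 3470 CPM in unstimulated libraries, 435 to 446 in IF 8 h, 494 to 604 in DC 8 h, 318 to 379 in IF 22 h and 322 to 439 in DC 22 h. Junb, an AP-1 subunit, was at 719 ± 81.5 CPM (SD, n = 3) in unstimulated cells and at 86.8 ± 15.9, 199 ± 20.3, 67.1 ± 3.47 and 138 ± 19.2 CPM in the 4 stimulated groups in the same order. The part of this response in the Klf4 and Klf6 results was not tested.

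Markers of cell types also moved with the groups. Of the 10 CD8 T cell genes, 7, 8, 6 and 6 were lower than in unstimulated cells at IF 8 h, DC 8 h, IF 22 h and DC 22 h. Of all tested genes 4.72%, 4.07%, 3.44% and 4.35% were lower in these comparisons. The median log2 fold changes of the CD8 T cell genes were −0.81, −0.99, −0.62 and −0.78. The 16 dendritic cell genes summed to 642 to 1530 CPM in unstimulated libraries, 211 to 464 in IF 8 h, 845 to 1230 in DC 8 h, 372 to 628 in IF 22 h and 467 to 636 in DC 22 h. Between 9 and 16 of the 16 had counts in a library, and Zbtb46 was at 0 in all unstimulated and all IF 8 h libraries. Members of the list moved in opposite directions, which the sums do not show. Of all tested genes 3.04%, 2.75%, 2.63% and 3.41% were higher at IF 8 h, DC 8 h, IF 22 h and DC 22 h, and the shares lower are given above. Of the 12 dendritic cell genes that were tested, 1 was higher and 5 lower at IF 8 h, 2 were higher and 0 lower at DC 8 h, 2 higher and 2 lower at IF 22 h, and 2 higher and 4 lower at DC 22 h. At DC 8 h the 2 were Fscn1, which encodes an actin-bundling protein of mature dendritic cells, and the chemokine gene Ccl22. Fscn1 had a mean of 2.31 CPM in unstimulated cells, and 142 CPM in DC 8 h against 0.489 in IF 8 h; the 22 h means were 85.1 CPM with DC and 23.7 with IF. Ccl22 had 1 count over the 3 unstimulated libraries and means of 14.3 and 9.20 CPM in the 8 h and 22 h DC groups, against 1.29 and 1.18 CPM with IF. Xcr1, a chemokine receptor gene of cross-presenting dendritic cells, had a mean of 24.1 CPM in unstimulated cells, 2.86 and 0.198 CPM in the 8 h and 22 h DC groups and 3.54 and 1.23 CPM with IF, and passed as lower in both 22 h groups. Itgax, which encodes CD11c, had 14.5 CPM in unstimulated cells, 5.32 and 3.95 CPM with DC and 12.7 and 20.0 CPM with IF, and passed as lower at DC 22 h. These 4 genes were singled out after their values were seen. The 9 monocyte, macrophage and neutrophil genes summed to 50.8 to 60.2 CPM in unstimulated libraries and to 12.8 to 103 CPM in stimulated ones, with Lyz2 and Cd14 at 0 in all 3 unstimulated libraries. The 6 B cell genes in the tables summed to 19.5 to 21.3 CPM and to 3.6 to 38.7 CPM. Of 5 erythroid genes 1 was in the tables, Alas2, and it was at 0 in every unstimulated library, where Klf1 was detected. The part of other cell types in the levels of the 7 genes was not tested.

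Over the 15 libraries, likeness of pattern was measured as the root mean square difference between log2 CPM values, each centred on the gene's own mean. Among all tested genes outside the 7, those most like Klf4 were Dtx1 (0.85), Elane (0.885) and Tlr11 (0.945). Dtx1, which encodes an E3 ubiquitin ligase of the Notch pathway, had 280 ± 25.8 CPM (SD, n = 3) in unstimulated cells and 6.87 ± 3.17 CPM in IF 8 h, 50.5 ± 24.5 in DC 8 h, 21.2 ± 6.32 in IF 22 h and 40.1 ± 4.12 in DC 22 h. Elane and Tlr11 had 85 and 46 counts over the unstimulated libraries and at most 4 in any stimulated group. In stimulated libraries these genes reached at most 0.396 and 0.476 CPM. Elane and Tlr11 therefore passed the low-count filter, which asks for 1.26 CPM, through the unstimulated libraries alone. Those most like Klf6 were Zfand2a (0.272), Cd2 (0.281) and Klk8 (0.288). Cd2, an adhesion receptor of T cells that is also in the CD8 T cell marker list, had 946 ± 74.7 CPM in unstimulated cells and 262 ± 41.7 CPM at DC 22 h. Among the 7 genes the closest pair was Klf3 and Klf13, at 0.389, and the farthest was Klf4 and Klf7, at 2.41.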

How the data were processed

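RNA was measured by a modified CEL-seq method, per the labels' protocols: barcoded primers start reverse transcription, and pooled cDNA is amplified by in vitro transcription. The deposited tables hold whole-number counts per gene, 1 table per library, without normalization. BWA and the build mm10 are listed in the submitters' processing notes. The counting program, annotation, use of strand and use of molecular identifiers are not given in the sources used here, so intervals cover counting error only.

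The analysis used edgeR 4.0.16 and limma 3.58.1 under R 4.3.3. Genes were kept by filterByExpr (minimum count 10, minimum total 15), which left out at most 0.124% of a library's counts. After TMM scaling, 5 group means were fitted over 15 libraries by quasi-likelihood. Fold changes use a prior count of 0.125 and log2 CPM values a prior count of 2. SE is the log2 fold change divided by the square root of F. Scripts were tested on simulated data. Alternatives were DESeq2 1.42.0, its size factors, library size alone, no filter, only the groups compared, the replicate number as a block, and leaving out each library. Titles give the same Don numbers in all 5 groups, which read as donors, so the block is a paired fit if they are. In the data, deviations of same-numbered libraries from their group means correlated by over 0.1 in 4 of 30 pairs, and 8 of 15 libraries correlated best with their own number, which neither shows nor excludes pairing. Gene positions are from GENCODE vM21 and promoters from RefSeq. All 7 genes were named in every comparison; of each list at most the 3 genes with the smallest p-value among those past the threshold, plus every KLF or SP gene that passed, S1pr1 and Ccl5. Some genes that this rule names are not reported here. The genes and lists were chosen with earlier results of these data known.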

Additional observations from a re-analysis of the deposited data

How the results depend on the processing

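Klf4 and Klf6 passed against unstimulated cells in all 4 stimulated groups under every alternative run, except at IF 22 h without IF 22 h replicates 2 and 3. The number of the 7 members past the threshold changed as follows, with the share of all tested genes that passed under the same setting in brackets. A fit of only both groups concerned gave 5 at IF 8 h (13.7%) and 3 at DC 8 h (8.34%). At IF 8 h it was 4 without the low-count filter (6.82%), and 2 with library size alone (10.3%), with the replicate block (7.08%) and without unstimulated replicate 2 or 3 or any 1 IF 8 h library, where Klf10 was lost. At DC 8 h it was 3 without the filter (6.59%). At IF 22 h it was 5 without the low-count filter (6.43%), 4 with DESeq2 (9.84%), 4 with the replicate block (5.89%) and 0 without IF 22 h replicates 2 and 3 (0.833%). At DC 22 h it was 4 without the filter (7.46%) and 3 with DESeq2 (11.7%). It was 2 without the filter for IF against DC at 22 h (4.12%) and 2 for IF 22 h against IF 8 h (2.93%). Leaving out 1 library gave 2 to 5 members at IF 22 h, with 5 without IF 22 h replicate 1 (8.49%) and 4 without DC 22 h replicate 2 (8.2%). It gave 0 to 2 for IF against DC at 22 h and for IF 22 h against IF 8 h, and 0 to 1 for the interaction, with the higher number in each without IF 22 h replicate 1 (6.81%, 4.85% and 2.5%). Among the 7 genes the replicate block changed the calls on Klf3 and Klf13 at IF 22 h and on Klf10 at IF 8 h, and no other. The cause of these changes was not tested. Depth limits Klf4 at IF 8 h, with 1 count over 3 libraries, and Klf1, with 0 counts in 3 stimulated groups.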
